A study of Mus musculus with 7 samples.

Results

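The genes described are those of the nuclear pore complex and of the receptors and Ran cycle that carry proteins and RNA through it. They were chosen by symbol from the authors' deposited table of 1 comparison, shKAP1 against control, in mouse neural stem cells, and 24 of the 3389 genes in that table are of this kind. The authors adjusted p-values over 12905 genes, and the table lists 26.3% of them. The symbols used were Nup, Kpna, Kpnb, Ipo, Xpo or Tnpo followed by a digit, together with Ran, Rangap1, Ranbp1, Ranbp2, Rcc1, Cse1l, Tpr, Ndc1, Pom121, Ahctf1, Aaas, Rae1 and Sec13. The GENCODE M21 annotation holds 56 protein-coding genes with such symbols, so 32 are not in the table. The table holds genes with a DESeq2 adjusted p under 0.05 only, so the values that put a gene among the 24 are those of the comparison itself. Fold changes and adjusted p-values below are therefore a description of the members, and no test was made of them as a group. For the 32 genes without a line the table does not tell a missed threshold from a gene that received no adjusted p.

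The cells came from mouse subventricular zone, a niche of neural stem cells in the brain, and were cultured with EGF and FGF-2. The shKAP1 group (n = 4) was nucleofected with a short hairpin RNA against KAP1, the product of Trim28 and a corepressor brought to DNA by KRAB zinc finger proteins. The labels of the control group (n = 3) give the same nucleofection protocol but not which hairpin, if any, the controls received. Neither the strain, age or sex of the mice nor the number of animals or cultures behind the samples is given there, so the p-values reflect only how much these samples vary, which may be technical. The table has no value per sample. Its mean normalized count, averaged over samples, stands in for the level and the standard error (SE) of the log2 fold change for the replicate error, and the depth of single libraries is unknown. A negative fold change was taken to mean a lower level in shKAP1, since Trim28 is negative in the authors' deposited table at a log2 fold change of -1.17 (SE 0.05), which leaves 44.5% of the control level (95% interval 41.4 to 47.9). Of 12 neural stem cell markers, 4 are listed, and their mean normalized counts in the authors' deposited table run from 96600 for Nes to 193157 for Vim. None of 6 microglia and none of 6 endothelial markers is listed. Sox2, Pax6, Gfap and 5 other neural stem cell markers have no line either. The presence of these and of the microglia and endothelial markers could thus not be checked. In bulk RNA, fewer cells of a type and less RNA per cell cannot be told apart.

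The nuclear pore is a ring-shaped channel through the nuclear envelope. Its scaffold is built of an outer ring, the Y complex, and an inner ring, and is held in the membrane by transmembrane proteins. Proteins rich in phenylalanine-glycine repeats fill the channel, filaments reach into the cytoplasm and a basket reaches into the nucleus. Importins bind cargo in the cytoplasm and release it where Ran carries GTP, and exportins bind cargo together with Ran-GTP in the nucleus and release it when GTP is hydrolysed. In dividing cells the pore is taken apart at mitosis and rebuilt around the daughter chromosomes, and new pores are added between divisions, so cycling cells keep making its proteins.

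The promoters of 5 genes are printed to show the words found in a scaffold gene, in both partners of the classical importin, in an exportin and in a Ran cycle gene. Each runs from 250 bases before to 50 bases after the annotated start, 5′ to 3′, from RefSeq on GRCm38.p6. Nup37 is the scaffold gene with the largest fall (chr10:88146742-88147041, plus strand). Kpna2 is the importin alpha with the largest fall (chr11:106999476-106999775, minus strand), and Kpnb1, its importin beta partner, is not listed (chr11:97187843-97188142, minus strand). Xpo1 is the main protein exportin (chr11:23255791-23256090, plus strand), and Ranbp1 the only one of the 5 with an E2F word (chr16:18248645-18248944, minus strand). Capitals mark the motif words spelled out further on.
Nup37: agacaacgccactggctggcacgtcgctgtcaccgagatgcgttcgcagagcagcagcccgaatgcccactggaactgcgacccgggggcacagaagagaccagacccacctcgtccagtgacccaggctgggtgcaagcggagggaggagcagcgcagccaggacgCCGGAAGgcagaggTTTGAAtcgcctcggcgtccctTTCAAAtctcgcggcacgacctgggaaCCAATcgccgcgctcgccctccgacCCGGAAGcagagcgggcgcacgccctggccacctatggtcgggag
Kpna2: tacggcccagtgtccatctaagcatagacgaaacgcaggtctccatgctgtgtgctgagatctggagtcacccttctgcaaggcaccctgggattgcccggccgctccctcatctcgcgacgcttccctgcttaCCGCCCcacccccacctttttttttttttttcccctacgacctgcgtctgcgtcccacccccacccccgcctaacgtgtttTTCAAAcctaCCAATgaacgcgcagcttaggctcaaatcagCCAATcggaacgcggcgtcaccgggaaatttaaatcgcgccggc
Kpnb1: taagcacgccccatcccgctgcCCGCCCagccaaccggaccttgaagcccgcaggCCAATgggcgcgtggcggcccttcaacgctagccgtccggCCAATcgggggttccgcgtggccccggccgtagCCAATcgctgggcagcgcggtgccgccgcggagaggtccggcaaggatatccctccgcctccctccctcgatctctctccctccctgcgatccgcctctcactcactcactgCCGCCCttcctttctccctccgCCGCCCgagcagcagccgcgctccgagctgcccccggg
Xpo1: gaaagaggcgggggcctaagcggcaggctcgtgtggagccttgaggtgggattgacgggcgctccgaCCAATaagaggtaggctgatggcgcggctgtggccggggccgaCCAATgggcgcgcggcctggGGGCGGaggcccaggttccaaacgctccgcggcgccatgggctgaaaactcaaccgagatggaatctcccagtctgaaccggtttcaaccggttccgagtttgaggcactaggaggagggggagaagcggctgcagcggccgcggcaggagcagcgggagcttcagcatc
Ranbp1: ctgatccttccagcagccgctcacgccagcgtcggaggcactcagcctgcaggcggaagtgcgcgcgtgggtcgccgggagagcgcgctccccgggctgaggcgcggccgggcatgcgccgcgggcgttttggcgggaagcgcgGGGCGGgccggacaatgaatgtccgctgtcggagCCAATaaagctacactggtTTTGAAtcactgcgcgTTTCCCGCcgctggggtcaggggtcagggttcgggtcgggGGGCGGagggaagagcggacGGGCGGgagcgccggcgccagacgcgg
In Nup37 the capitals are, in order, an ETS word, 2 CHR words on opposite strands, a CCAAT box and an ETS word. Kpna2 holds a GC box, a CHR word and 2 CCAAT boxes. The Kpnb1 promoter has 3 CCAAT boxes and 3 GC boxes, and Xpo1 has 2 CCAAT boxes and a GC box. Ranbp1 holds a GC box, a CCAAT box, a CHR word, an E2F word and 2 further GC boxes.

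All 24 listed members were lower in shKAP1 and none was higher. Over all genes with an adjusted p, 13.7% were called lower, 12.6% higher and 26.3% in either direction, and nothing is read from the members' count against these shares, because the rule took members from the calls. The falls were small. On the log2 scale the median change was -0.24, from -0.39 for Nup37 to -0.12 for Xpo7, a median fall of 15.0% (8.17% to 23.8%). The median over all listed lower genes was -0.28, and 6 of the 24 members lay beyond it. Whether single samples of the groups overlap cannot be seen in the table. The 95% interval of every member lies below 0 by construction of the list. The members' intervals overlap widely, and in 9 of 276 pairs of members they lie apart. The interval of Nup210, for example, runs from 69.8% to 83.7% of the control level and that of Ran from 86.2% to 97.8%.

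**Figure D1:**
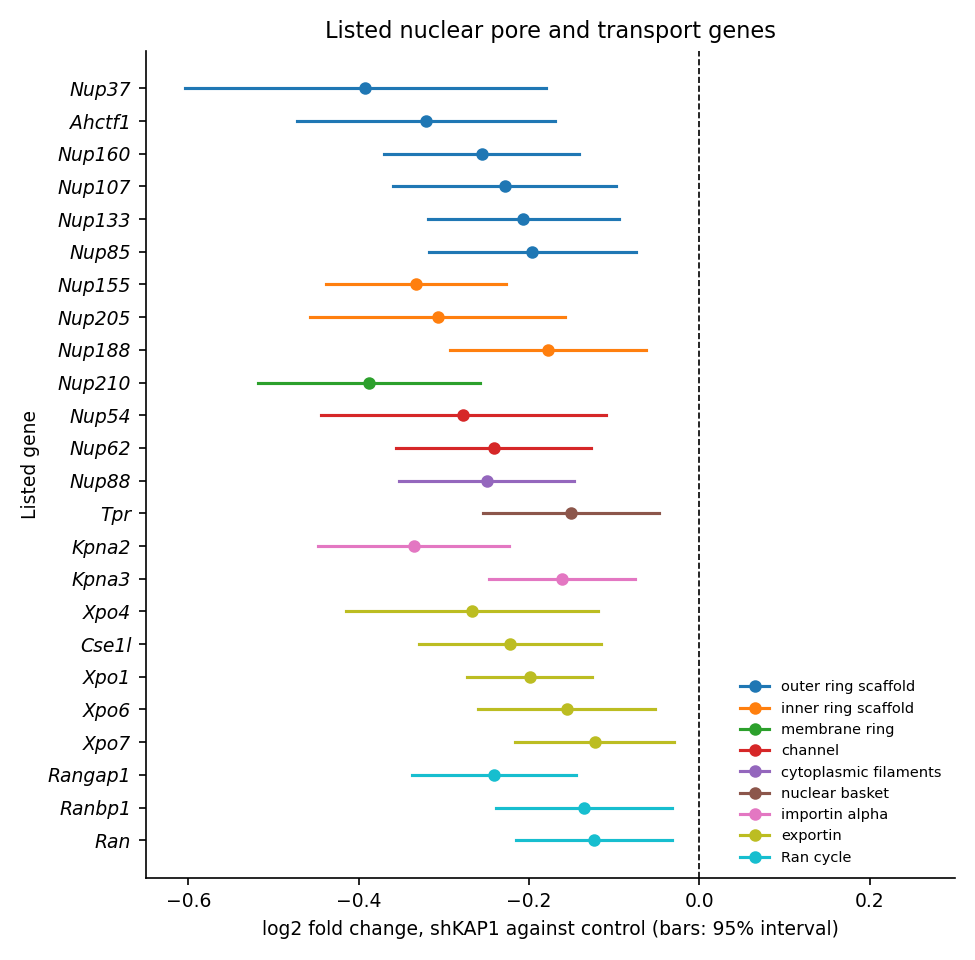
Each point is the log2 fold change (shKAP1 against control) of 1 listed gene, with its 95% interval as a bar, coloured by role. All 24 lie left of 0, between -0.39 for Nup37 and -0.12 for Xpo7, and most intervals overlap.

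The listed genes are spread over every role except the importin beta family. Of 13 scaffold genes 9 were lower and 4 were not listed, with a median change of -0.26 (log2). Of 4 channel genes 2 were lower, of 17 importin genes 2 were lower, and of 6 exportin genes 5 were lower. The medians were -0.26 for the channel, -0.25 for the importins and -0.20 for the exportins. The share listed was 69.2% for the scaffold, 50% for the channel, 11.8% for the importins and 83.3% for the exportins. Over all genes with an adjusted p, 13.7% were called lower. The group shares divide by annotated genes, which may include some without an adjusted p, so the denominators differ. These shares come from the calls that chose the members and depend on the grouping, since exportins taken with the importin beta family were listed in 5 of 17 cases (29.4%). Whether the groups differ was not tested, and a gene can miss the list through a smaller change, a wider error or a lower level. At the median SE of the members, 0.06 on the log2 scale, a change had to reach 0.14, or a fall of 9.38%, to be listed.

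**Figure D2:**
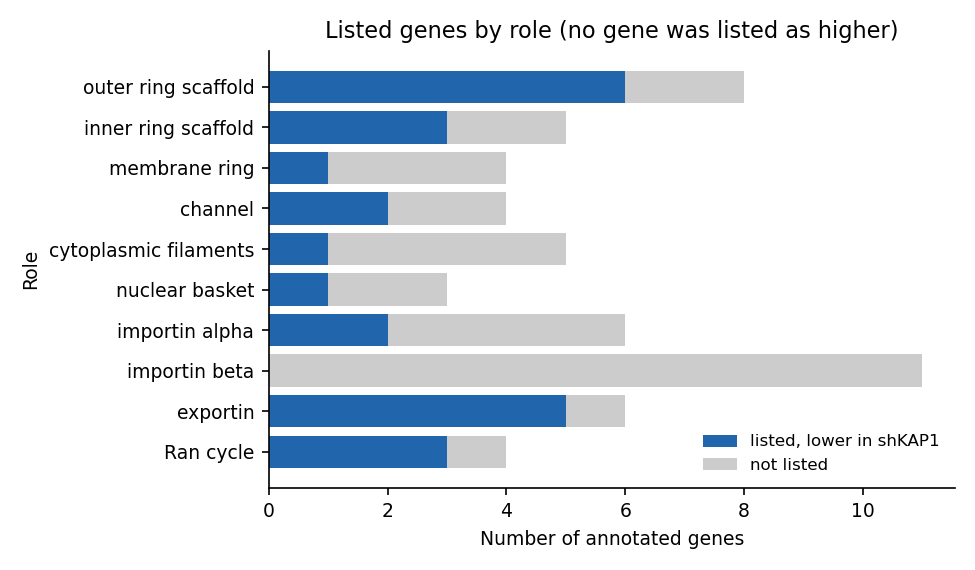
Each bar is 1 role, and its length is the number of annotated protein-coding genes that match the symbols, with those listed as lower in blue and those not listed in grey. The exportin bar is blue for 5 of 6 genes, and the importin beta bar is grey for all 11.

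In the outer ring, 6 of 8 genes were lower. Nup160, a subunit of the Y complex, stands in the authors' deposited table at a log2 fold change of -0.26 (DESeq2 adjusted p = 1.51e-04, SE 0.06) with a mean normalized count of 3023. Ahctf1, which encodes ELYS, the protein that brings the Y complex to chromatin after mitosis, has a log2 fold change of -0.32 (DESeq2 adjusted p = 3.49e-04, SE 0.08) in the authors' deposited table, and a mean normalized count of 3461. Both were thus at 80.0% to 83.8% of the control level. Nup37, a small subunit found in the Y complex of animals but lacking in budding yeast, was at -0.39 (SE 0.11) in the authors' deposited table. It had the fewest counts of the 24, a mean of 598, and the widest error. Nup107 at -0.23, Nup133 at -0.21 and Nup85 at -0.20 in the authors' deposited table complete the listed members of the Y complex. Nup43 and Sec13, a subunit shared with the coat of vesicles that leave the endoplasmic reticulum, were not listed. Seh1l, the Y complex subunit that the symbols do not cover, was lower as well, at -0.37 (DESeq2 adjusted p = 3.77e-06, SE 0.07) in the authors' deposited table.

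In the inner ring, 3 of 5 genes were lower. Nup155, which ties the inner ring to the membrane, had the smallest adjusted p of the 24, with a log2 fold change of -0.33 (DESeq2 adjusted p = 2.97e-08, SE 0.05) and a mean normalized count of 2937 in the authors' deposited table. In GRCm38 the Nup155 gene (ENSMUSG00000022142.8) spans 8109273 to 8161247 of chromosome 15 (plus strand). Its level was 79.4% of control (95% interval 73.8 to 85.5). Nup205 was at -0.31 (DESeq2 adjusted p = 5.60e-04, SE 0.08) in the authors' deposited table, and Nup188, its large paralog in the same ring, at -0.18 (DESeq2 adjusted p = 0.0135, SE 0.06). The intervals of these paralogs, 72.9% to 89.7% and 81.6% to 95.8% of control, overlap. Nup93, the hub that holds both, was not listed, nor was Nup35. For Nup35 the measurement is uncertain, because 86.0% of its 31-base words also occur in the annotated gene Gm4353.

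The membrane ring, the channel, the filaments and the basket had 5 listed genes among 16. Nup210, a membrane glycoprotein of the pore, was at a log2 fold change of -0.39 (DESeq2 adjusted p = 1.68e-07, SE 0.07) in the authors' deposited table, at a mean normalized count of 7593. Nup210 (ENSMUSG00000030091.17, chromosome 6, 91013068 to 91116829, minus strand) was at 76.4% of the control level. Ndc1 and Pom121, which anchor the pore in the membrane, and Nup210l were not listed. In the channel, Nup62 was at -0.24 (DESeq2 adjusted p = 3.65e-04, SE 0.06) and Nup54 at -0.28 (DESeq2 adjusted p = 0.00720, SE 0.09) in the authors' deposited table. The Nup54 value is uncertain, because 26.1% of its 31-base words also occur in the processed pseudogene Gm15790. These 2 proteins and Nup58 form the central channel trimer. Nup58 carries the older symbol Nupl1 in the annotation, so the symbols do not reach it, and it is not listed. Nup98, a mobile channel protein whose gene also encodes the scaffold protein Nup96, and Nup62cl were not listed either. On the cytoplasmic side 1 of 5 genes was lower, Nup88 at -0.25 (DESeq2 adjusted p = 2.86e-05, SE 0.05) in the authors' deposited table, a level of 84.1% of control. Its partner Nup214, the large filament protein Ranbp2, the mRNA export factor Rae1 and Aaas were not listed. Of 3 basket genes, Tpr, the coiled-coil protein of the basket, was at -0.15 (DESeq2 adjusted p = 0.0201, SE 0.05) in the authors' deposited table, and Nup153 and Nup50 were not listed.

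Importin alpha proteins are adaptors that hold the classical nuclear localization signal and bind Kpnb1, the importin beta that moves the complex through the pore. Kpna2, the importin alpha known for its high level in dividing cells, was at a log2 fold change of -0.34 (DESeq2 adjusted p = 1.49e-07, SE 0.06) and a mean normalized count of 16842 in the authors' deposited table. Its gene (ENSMUSG00000018362.14) spans 106988629 to 106999541 on the minus strand of chromosome 11. Kpna3 was at -0.16 (DESeq2 adjusted p = 0.00191, SE 0.04) there. Kpna2 was at 79.3% of control (95% interval 73.3 to 85.7) and Kpna3 at 89.4% (84.3 to 94.9), so their intervals just overlap. Kpna1, Kpna4, Kpna6 and Kpna7 were not listed. The Kpna2 value is uncertain, since 73.3% of its 31-base words occur in other annotated genes, the highest share among the 24. Gm10184, which is not listed, alone holds 71.3% of its words. None of the 11 genes of the importin beta family was listed, which covers Kpnb1, 7 genes named Ipo and 3 transportin genes named Tnpo. Shared words limit this group too, as 57.7% of the words of Ipo4 occur in Gm49378, annotated as protein-coding. Of the words of Tnpo1 18.2% and of those of Ipo5 14.2% occur in processed pseudogenes.

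Exportins were lower in 5 of 6 cases. Xpo1, also called CRM1, which exports proteins with leucine-rich signals, was at a log2 fold change of -0.20 (DESeq2 adjusted p = 2.68e-06, SE 0.04) in the authors' deposited table, with the smallest error of the 24 and a mean normalized count of 12300. Cse1l, the exportin that returns importin alpha to the cytoplasm, was at -0.22 (DESeq2 adjusted p = 4.42e-04, SE 0.05) in the authors' deposited table and a mean normalized count of 10673. The Xpo1 gene (ENSMUSG00000020290.14) spans 23256041 to 23298249 of chromosome 11 and the Cse1l gene (ENSMUSG00000002718.14) spans 166906040 to 166946389 of chromosome 2, both on the plus strand. The cargo-carrying Kpna2 and its recycling factor Cse1l were thus both lower, at 79.3% and 85.7% of the control level. In the authors' deposited table Xpo4 stood at -0.27, Xpo6, the exportin of actin, at -0.16, and Xpo7 at -0.12. Xpo5, the exportin of microRNA precursors, was not listed.

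Of the 4 Ran cycle genes 3 were lower. Rangap1, which makes Ran hydrolyse GTP at the cytoplasmic face of the pore, was at a log2 fold change of -0.24 (DESeq2 adjusted p = 1.57e-05, SE 0.05) and a mean normalized count of 15660 in the authors' deposited table. Ran itself was at -0.12 (DESeq2 adjusted p = 0.0349, SE 0.05) there, and Ranbp1, the cofactor of Rangap1, at -0.14 (DESeq2 adjusted p = 0.0417, SE 0.05). These levels are 84.6%, 91.8% and 91.0% of control. Ranbp1, Xpo7 (DESeq2 adjusted p = 0.0389) and Ran are the members closest to the threshold in the authors' deposited table, and genes just outside it have no values there. Rcc1, the exchange factor on chromatin that loads Ran with GTP, was not listed. Of the 31-base words of Ranbp1 30.1% occur in other genes, mostly in Gm49776, and of those of Ran 18.9%, mostly in the processed pseudogene Gm13461.

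Levels per length spread widely among the listed members. Mean normalized counts from the authors' deposited table, divided by the length of the longest annotated coding transcript, ran from 375 per kb for Nup155 to 13505 per kb for Ran. The Ran cycle had a median level of 10233 per kb and the listed importin alpha genes one of 5055 per kb. Exportins stood at 1645, the channel at 1180, the inner ring at 885 and the outer ring at 582 per kb. Listed transport receptors and Ran cycle genes had a higher median level per length than listed pore proteins, 2490 against 896 per kb. Xpo4 at 409 and Xpo7 at 415 per kb lay below the pore median, and the other listed receptors and Ran cycle genes above it. Some of these levels are uncertain through shared words, at 73.3% for Kpna2, 30.1% for Ranbp1, 26.1% for Nup54 and 18.9% for Ran. Counts are known without an error over samples, so the order of neighbouring groups was not tested. Of the 24 members 22 had a mean count above the median of all listed genes, 2885. Across the 24 members the log2 fold change was less negative at higher mean counts, with Pearson's r = 0.49 (log10 counts) and Spearman's rho = 0.48, given as a description. The points share the same libraries, and genes with few counts and wide errors had to change more to be listed.

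**Figure D3:**
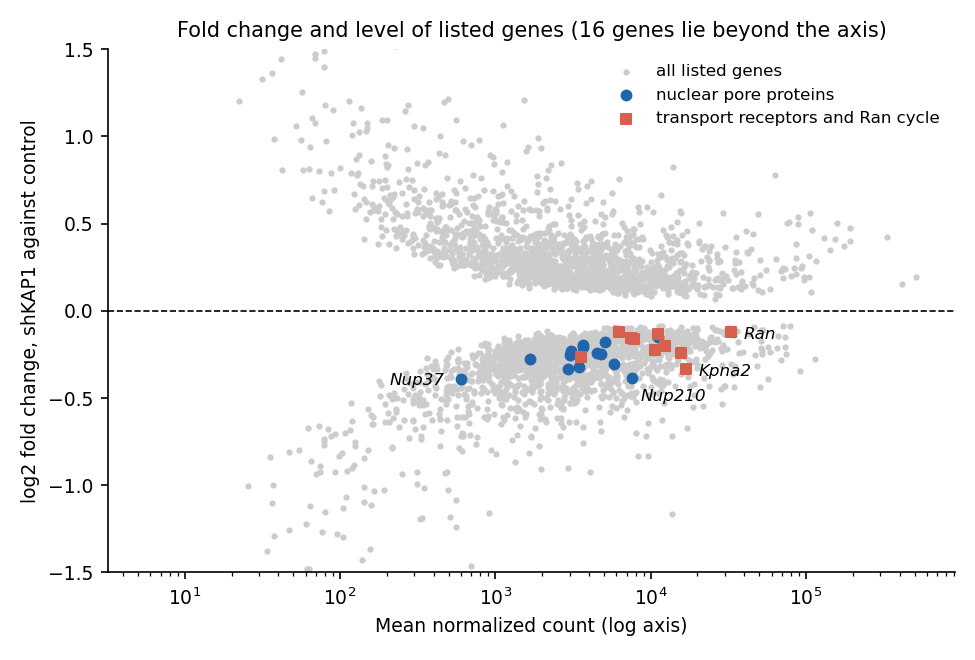
The x axis is the mean normalized count on a log axis, and the y axis the log2 fold change (shKAP1 against control). Grey points are all listed genes, of which 16 lie beyond the y axis, and the 24 members lie between -0.39 and -0.12 at mean counts of 598 (Nup37) to 32723 (Ran).

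The members lie on 11 chromosomes, and no chromosome holds more than 4 of them, those on chromosome 11 being Kpna2, Nup85, Nup88 and Xpo1. The median GC content of the longest coding transcript was 46.5% over the listed members (39.6% to 57.4%), and 48.2% over the 32 genes not listed. Over all listed genes it was 47.2% for the lower and 52.7% for the higher ones. The members thus lie near the other lower genes in base composition, whose part in the result was not tested.

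Promoters were found for 19 of the 24 members, in 20 entries, and for 27 of the 32 genes not listed, in 33 entries. Cse1l, Kpna3, Nup85, Xpo4 and Xpo7 had no entry. Words were searched on both strands and each match was counted, also where matches overlapped, which they do not in the 5 promoters printed above. The CHR word TTTGAA is named for the cell cycle homology region of late cell cycle genes. It was in 6 of the 20 entries of the members (30.0%) and 9 of the 33 of genes not listed (27.3%). Its share was 16.4% in promoters of all lower genes, 9.09% in those of all higher genes and 15.2% in all protein-coding promoters. Nup37 has 2 entries, and by gene the word was in 5 of 19 members, Kpna2, Nup37, Ranbp1, Rangap1 and Tpr, and in 9 of 27 genes not listed. The listed and the unlisted genes thus change order with the way of counting, and no difference between them is read from this word. An E2F word, TTTCCCGC or TTTGGCGC, was in the promoters of Nup210 and Ranbp1 and so in 2 of 20 entries. It was in none of the 33 entries not listed, in 5.80% of promoters of all lower genes and in 2.08% of all protein-coding promoters. The NRF1 word, a palindrome of 10 bases, was found in 3 members, Nup62, Nup107 and Ran, or 15.0% of the 20 entries. It was in 6.06% of entries not listed, 1.84% of promoters of all lower genes and 1.38% of all protein-coding promoters. The YY1 word AAGATGGCG was also in 15.0% of the 20 entries, against 3.03% of entries not listed, 2.90% of promoters of all lower genes and 1.93% of all. The CCAAT box CCAAT was in 10 of the 20 entries of the members, 45.5% of entries not listed, 41.4% of promoters of all lower genes and 37.8% of all protein-coding promoters. The ETS word CCGGAAG was in 5 of the 20 entries, against 15.2% of entries not listed, 15.0% of promoters of lower genes and 11.9% of all. The GC box GGGCGG was in 15 of the 20 entries, against 57.6% of entries not listed and 47.8% of all protein-coding promoters, and it was in 66.8% of promoters of all lower genes and 65.3% of those of all higher genes. Median promoter GC content was 63.5% for the members, 63.7% for the genes not listed, 62.7% for all lower and 62.0% for all higher genes, above 57% for all protein-coding promoters. A share of 20 entries moves by 5% with each entry, and a match is a word in the sequence, not a binding site.

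**Figure D4:**
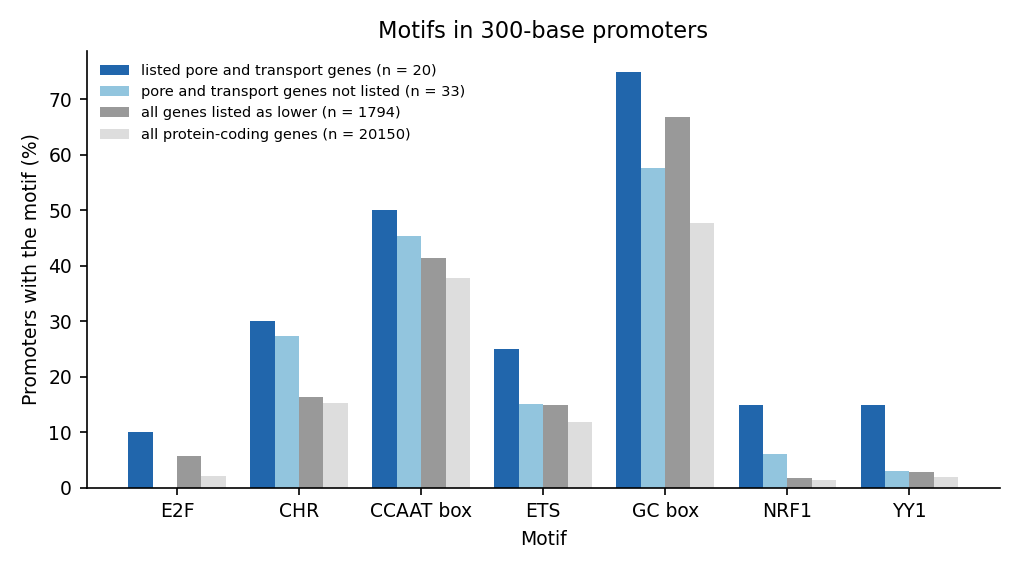
Bars give the share of 300-base promoters that hold each motif word on either strand, for listed pore and transport genes (20 entries), those not listed (33 entries), all genes listed as lower and all protein-coding genes. The CHR bars of listed and not listed pore and transport genes stand at 30.0% and 27.3% of entries (5 of 19 and 9 of 27 by gene), beside 15.2% of all protein-coding promoters.

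Genes that work with the pore are set beside the shares over all genes with an adjusted p, 13.7% lower and 12.6% higher. Of 14 further transport genes 11 were not listed and 3 were lower, or 23.1% of the 13 that are annotated, and nothing is read from this share. The 3 are Seh1l, the mRNA export receptor Nxf1 at a log2 fold change of -0.20 (SE 0.06) and Nxt2, of the family of its cofactor, at -0.34 (SE 0.08) in the authors' deposited table. Of 19 mRNA export genes 6 were lower and none was higher, or 33.3% and 0% of the 18 that are annotated. In the authors' deposited table these include Thoc2 of the THO complex, which loads export factors onto RNA, at -0.37 (SE 0.08), Zc3h11a at -0.31, Thoc3 at -0.26 and the export helicase gene Ddx39b at -0.14. Of 16 genes of the nuclear lamina and envelope 9 were lower (56.3%), 3 higher (18.8%) and 4 not listed. Lmnb1, a B-type lamin, stood at -0.67 (DESeq2 adjusted p = 7.94e-23, SE 0.06) in the authors' deposited table, further from 0 than any of the 24 members. Lmnb2, the other B-type lamin, was at -0.40 (SE 0.08), and the chromatin-tethering membrane proteins Tmpo and Lbr at -0.38 and -0.37 in the authors' deposited table. Lmna, which encodes the A-type lamins, was higher at 0.50 (DESeq2 adjusted p = 1.12e-04, SE 0.11) in the authors' deposited table. The inner membrane proteins Lemd2 at 0.18 and Emd at 0.15 were higher with it in the authors' deposited table.

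Genes of a proliferation list, chosen with earlier results of these data known, were mostly lower as well. Of 20 such genes 18 were lower (90.0%) and 2 had no line, beside 13.7% called lower over all genes with an adjusted p. Their median change was -0.39 on the log2 scale, between -0.55 for Mki67 and -0.23 for Mcm7. In the authors' deposited table Mki67, a marker of cycling cells, was at -0.55 (SE 0.05), Top2a at -0.45, Cdk1 at -0.43 and Mcm6 at -0.40. The largest fall among the pore and transport genes, -0.39, equals the median of these genes. Whether the share of cycling cells has a part in the lower pore and transport genes was not tested. Cell type markers were listed in part. Their shares stand beside 13.7% lower and 12.6% higher over all genes with an adjusted p, and nothing is read from them. The 4 listed of 12 neural stem cell markers (33.3%) were all higher, at log2 fold changes of 0.19 to 0.48. Of 7 neuroblast and neuron markers 2 were lower (28.6%), with Dcx at -0.62 in the authors' deposited table. Of 7 oligodendrocyte markers 2 were higher (28.6%), Mobp at 1.03 and Olig2 at 0.20 in the authors' deposited table. Bcas1, an oligodendrocyte lineage gene outside that list and added after its value was seen, went the other way, at -1.03 in the authors' deposited table, so these genes do not move in 1 direction. None of 6 microglia and none of 6 endothelial markers was listed. The part of these markers in the result was not tested.

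**Figure D5:**
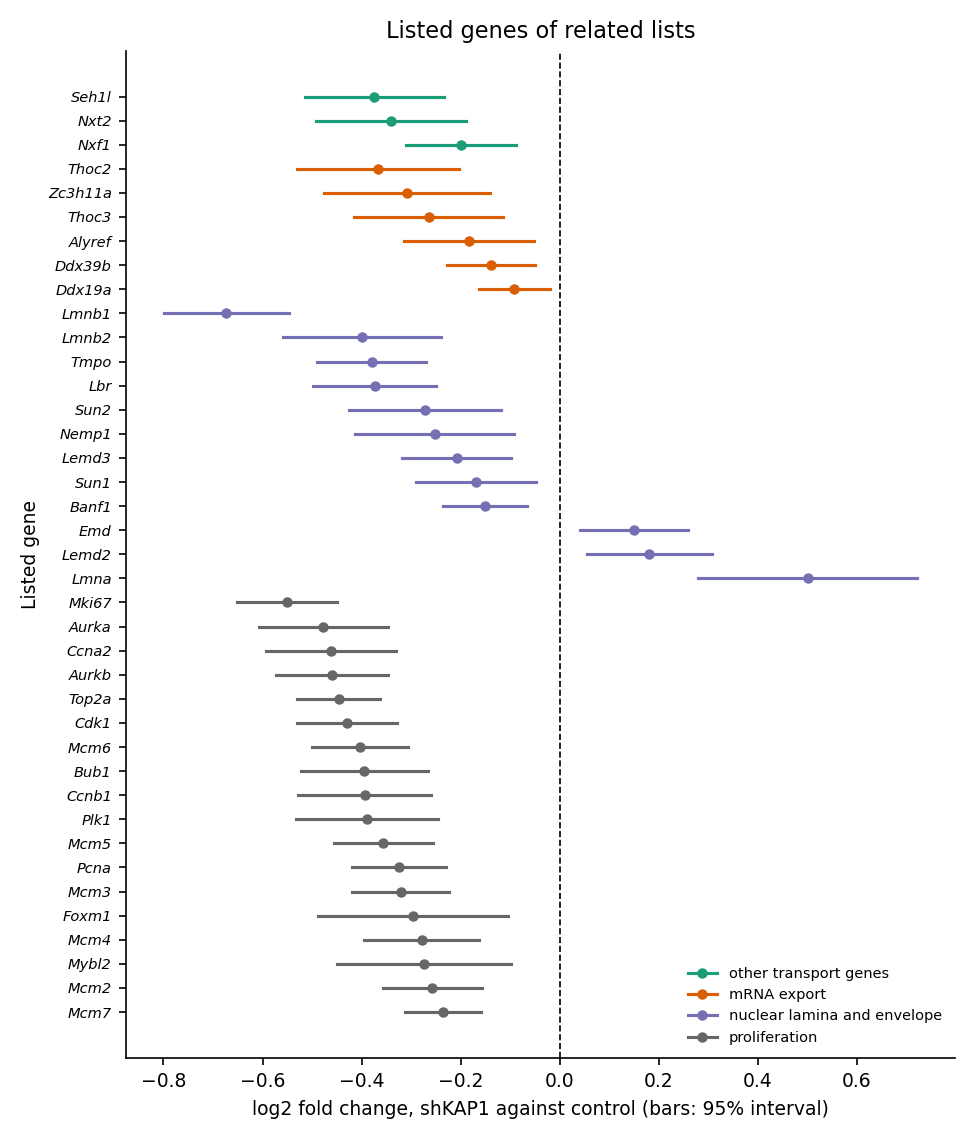
Points are log2 fold changes (shKAP1 against control) of the listed genes of 4 related lists, with 95% intervals as bars. Among lamina and envelope genes Lmnb1 stands at -0.67 and Lmna at 0.50, and all 18 listed proliferation genes lie below 0.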

How the data were processed

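RNA was sequenced from poly(A)-selected, strand-specific libraries of 7 samples, per the labels' protocols, grouped by the library names. Trim Galore 0.4.4, kallisto, DESeq2 and GRCm38 are named in the submitters' processing notes. Model formula, strand setting and annotation were not given in the sources used. The table deposited by the authors gives, per the file headers, the mean normalized count (a signal over all samples of the fit), the log2 fold change and the error of that log2 value, a signed fold and Wald statistic (each a score) and p-values. Nothing was refitted, and the planned count test was replaced by the authors' test. The number of genes tested, 12905, was recovered from adjusted and raw p-values as the median over lines, and 85.2% of the lines returned it. The step was tested on simulated data. Of the genes tested 9516 are not listed.

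Symbols, GRCm38 coordinates and transcripts came from GENCODE M21, which matched 3388 of 3389 identifiers. Intervals of 95% use a normal approximation. Shared 31-base words were counted on both strands over all M21 transcripts, 31 being chosen as kallisto's usual word length. Whether the authors used it is not stated. Python 3.11.15, pandas 2.3.3, scipy 1.17.1 and matplotlib 3.10.9 were used. The members and lists were chosen with earlier results of these data known. Every listed member is named. Fold change, SE and adjusted p are given for the 2 of smallest adjusted p per role, with the mean count for some of them. Up to 4 genes per further list are named by adjusted p. The statistics of Nup188 and Ranbp1, the further genes Lmna, Lemd2, Emd, Mcm7 and Bcas1, and the neighbouring genes were added after their values were seen. Alternatives were stricter limits, a minimum count, removal of genes with copies and other groupings.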

Additional observations from a re-analysis of the deposited data

How the results depend on the processing

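The table is of genes past a threshold, so other tools, normalizations and leaving out single replicates could not be run. No paired analysis was possible because values of single samples are not in the table. The library names number the controls 1, 2 and 4 and the shKAP1 samples 1 to 4, without a control 3. Whether equal numbers stand for matched samples is not given. A minimum of 100 mean normalized counts could remove none of the 24 members, whose lowest mean is 598, and so tests nothing. At an adjusted p under 0.01 18 were left, beside 2283 of all 3389 listed genes. Fewer passed at stricter limits, by construction. At the Bonferroni limit 6 were left (Kpna2, Nup155, Nup210, Nup88, Rangap1 and Xpo1), with 1 scaffold, 0 channel, 1 importin and 1 exportin genes. Of all listed genes 930 passed that limit. With an interval wholly beyond 1.2-fold, and with a 2-fold minimum, 0 members and 0 genes of each group were left. Of all listed genes 631 and 82 passed these 2 limits, and nothing is read from the members' counts beside them. At an adjusted p under 0.01 there were 3 exportins. Without the 4 members with pseudogene copies, 20 were left, with 1 channel and 1 importin gene. Leaving out the 7 members that share at least 5% of their words with any other gene left 17. This alternative was chosen after seeing the data. It left 7 scaffold, 1 channel, 1 importin and 4 exportin genes. Nup133, Nup188 and Xpo4, with 13.0%, 10.5% and 7.48% of their words shared, were among those left out. Regrouping could not change the number called, as neither Nup98 nor any importin beta gene is listed, but it changed the share listed. With Nup98 the scaffold had 9 of 14 (64.3%, from 69.2%), and exportins with the importin beta family 5 of 17 (29.4%, from 83.3%). Library depth is unknown. At the members' median error a fall under about 9.38% could not be listed. Ran, Ranbp1 and Xpo7, whose errors lie below that median, were listed with falls of 8.19%, 8.96% and 8.17%.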

Other observations

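Of the 24 listed members 9 start within 1000 bases of a coding gene on the other strand, and 4 of these neighbours are listed. Over all genes with an adjusted p 26.3% are listed. Of the 32 pore and transport genes not listed 4 have such a neighbour. Polh beside Xpo5, at a log2 fold change of -0.42, and Arpc1a beside Kpna7, at 0.12, are listed in the authors' deposited table. Nothing is read from these counts. Nup37 and Parpbp, a DNA repair gene that restrains homologous recombination, start 51 bases apart and were both lower in the authors' deposited table, Parpbp at a log2 fold change of -0.56 (DESeq2 adjusted p = 1.04e-04, SE 0.13). Ranbp1 and the tRNA methyltransferase gene Trmt2a start 53 bases apart, and Trmt2a was at -0.16 (SE 0.06) in the authors' deposited table. The other 2 listed neighbours of the members went the opposite way. Dolk, a dolichol kinase gene that starts 63 bases from Nup188, was higher at 0.19 (DESeq2 adjusted p = 0.0107, SE 0.06) in the authors' deposited table. Atf5, a stress-responsive transcription factor gene 570 bases from Nup62, was higher at 0.50 (DESeq2 adjusted p = 3.83e-20, SE 0.05) in the authors' deposited table. Whether the authors counted by strand is not given, so reads of overlapping ends of such pairs may not be told apart.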
